A study of Mus musculus with 9 samples.

Results

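The cyclin-dependent kinase inhibitors were followed in F9, a mouse line of embryonal carcinoma cells that retinoic acid turns toward endoderm, on 9 oligonucleotide arrays. The 7 genes Cdkn1a, Cdkn1b, Cdkn1c, Cdkn2a, Cdkn2b, Cdkn2c and Cdkn2d were chosen by symbol from the platform annotation, which gave 9 probe sets among the 12422 tested, or 7 of the 8251 genes with a probe set of their own. Cdkn1a and Cdkn1b had 2 probe sets each, and the other 5 genes had 1. Cells were given retinoic acid (RA) at 0.5 µM, trichostatin A (TSA), which blocks histone deacetylases, at 0.07 µM, or ethanol in culture medium as the vehicle, each for 24 h and with 3 arrays per group. The labels name ethanol only for the vehicle cultures and do not say what the compounds were dissolved in, whether the replicates were separate cultures, or whether all arrays were run together. The p-values therefore set differences between groups against the spread of these arrays within groups, which may be technical only. Any difference in handling between groups cannot be told apart from treatment. All groups are 1 cell line, and the results describe that line.

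These inhibitors slow the cell cycle by binding cyclin-dependent kinases, the enzymes that push cells from G1 into DNA replication. The Cip/Kip proteins p21 (Cdkn1a), p27 (Cdkn1b) and p57 (Cdkn1c) bind complexes of cyclins with their kinases, chiefly those of Cdk2. The INK4 proteins p16 (Cdkn2a), p15 (Cdkn2b), p18 (Cdkn2c) and p19 (Cdkn2d) bind Cdk4 and Cdk6 and keep D-type cyclins from activating them, so that the retinoblastoma protein stays active. Cdkn2a also encodes Arf, which stabilises p53, from another reading frame. Cdkn1c is imprinted and is expressed from the maternal copy, and Cdkn1a is a textbook target of p53 and of deacetylase inhibitors.

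Each deposited value is the ratio of a probe set on 1 array to the mean of that probe set over the vehicle arrays. A ratio shows a difference between groups and no brightness, so the genes cannot be ranked by abundance, and a high ratio may come from a weak signal in vehicle cells. For the same reason, whether F9 marker genes are present could not be checked. The 18S ribosomal RNA control probe sets had their highest median ratios on vehicle replicate 3 (2.40) and RA replicate 3 (0.961), below called the arrays of high 18S signal. Next came vehicle replicate 1 at 0.538 and vehicle replicate 2 at 0.0730. RA replicates 1 and 2 stood at 0.0723 and 0.0515, and the TSA arrays at 0.0336, 0.0427 and 0.0531. Every TSA array thus lay below every vehicle array in 18S signal. The 18 hybridisation spike control probe sets had median ratios of 0.563 to 0.726 in TSA, 0.413 to 1.03 in RA and 0.822 to 1.23 in vehicle. TSA arrays thus lay below vehicle arrays there too. Leaving out both arrays of high 18S signal keeps both separations, and their part in the results was not tested. The 12 probe sets of 9 F9 and undifferentiated cell markers had mean ratios of 0.499 to 0.532 in RA, up to 0.568 in TSA and 0.955 to 1.04 in vehicle, and 4 passed as lower with each compound. The 30 probe sets of 20 endoderm markers had mean ratios of 2.53 to 2.69 in RA, 1.29 to 1.93 in TSA and 0.824 to 1.24 in vehicle, with 4 higher in RA and 2 higher in TSA. Their median ratios were 1.08 to 1.31 in RA, 0.746 to 0.896 in TSA and 0.840 to 1.25 in vehicle, so the medians of RA and vehicle arrays overlapped. The 23 probe sets of 16 fibroblast and feeder markers had mean ratios of 1.21 to 1.27 in RA, 2.17 to 3.32 in TSA and 0.777 to 1.40 in vehicle, with none higher in RA and 4 higher in TSA. Their median ratios, 0.837 to 1.05 in RA, 0.973 to 1.20 in TSA and 0.645 to 1.28 in vehicle, overlapped among all groups. Over all probe sets, 0.934% passed as higher and 0.427% as lower in RA, and 2.21% as higher and 1.27% as lower in TSA. The part of these markers in the results below was not tested.

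TSA raised 3 of the 7 inhibitor genes, and RA raised or lowered none that passed the test. In TSA, Cdkn1c stood at 21.6 ± 7.75 times the vehicle mean, Cdkn2b at 8.85 ± 2.40 times and Cdkn1a at 2.91 ± 0.355 times by the probe set that passed (SD, n = 3). A probe set was counted as changed when limma gave an adjusted p under 0.05, with Benjamini-Hochberg adjustment over all 12422 probe sets. By this count 3 of the 9 inhibitor probe sets were higher and 0 lower in TSA, where 3.48% of all probe sets passed, 2.21% as higher and 1.27% as lower. Of these calls, that of Cdkn1a lay close to the threshold and held in 6 of 18 alternative settings. In RA the count was 0 of 9 by limma, and 0 also at an unadjusted p under 0.05, where 1.36% of all probe sets passed the adjusted test (0.934% higher and 0.427% lower) and 12.7% the unadjusted one. Log2 changes below are on the scale of log2(ratio + 0.05), which understates changes of low values.

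**Figure D1:**
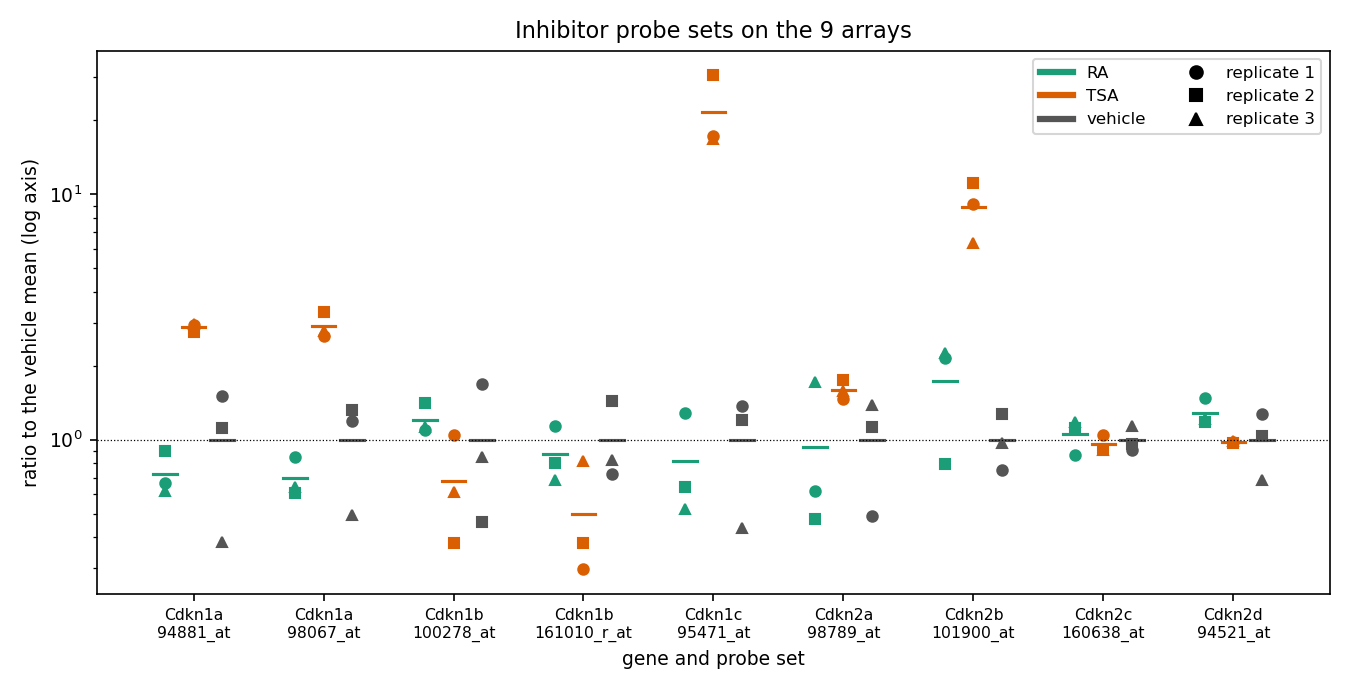
Ratio to the vehicle mean (log axis) of each of the 9 inhibitor probe sets on every array, with RA, TSA and vehicle from left to right, replicates as circles, squares and triangles, and bars at group means. The TSA arrays of Cdkn1c lie between 16.9 and 30.5 and those of Cdkn2b between 6.33 and 11.1, above all RA and vehicle arrays.

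The promoters of Cdkn1a and Cdkn2b, which passed the test in TSA, are shown as the sequence context of those genes. The window and motifs were chosen with the values in view. Each line gives the 250 bases before a RefSeq transcription start on the GRCm38.p6 build, on the gene's own strand. Capitals mark the GC box GGGCGG or its reverse complement CCGCCC, the textbook binding letters of Sp1.
Cdkn1a, first start, chr17:29090729-29090978, plus strand: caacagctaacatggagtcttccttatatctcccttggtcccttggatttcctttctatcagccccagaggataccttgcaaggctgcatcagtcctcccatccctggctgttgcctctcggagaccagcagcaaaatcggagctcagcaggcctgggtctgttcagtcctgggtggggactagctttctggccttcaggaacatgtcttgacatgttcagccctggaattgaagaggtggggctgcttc
Cdkn1a, second start, chr17:29093519-29093768, plus strand: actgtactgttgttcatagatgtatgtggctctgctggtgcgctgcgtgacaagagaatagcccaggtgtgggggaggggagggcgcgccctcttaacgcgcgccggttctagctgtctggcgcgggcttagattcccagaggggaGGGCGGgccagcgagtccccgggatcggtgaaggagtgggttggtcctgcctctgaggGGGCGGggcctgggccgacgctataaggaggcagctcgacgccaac
Cdkn2b, chr4:89311033-89311282, minus strand: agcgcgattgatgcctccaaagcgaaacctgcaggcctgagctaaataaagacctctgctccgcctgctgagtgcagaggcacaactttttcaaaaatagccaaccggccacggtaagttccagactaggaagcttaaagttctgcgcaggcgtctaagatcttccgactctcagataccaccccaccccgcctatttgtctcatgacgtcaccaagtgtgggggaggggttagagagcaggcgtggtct
The window before the second Cdkn1a start holds 2 GC boxes, which begin 46 and 104 bases before that start. Neither the window before the first Cdkn1a start nor the Cdkn2b window holds one, while 1 lies in the first 50 bases after the Cdkn2b start. Of the 9 RefSeq windows used here, which cover the inhibitor genes other than Cdkn1c, 5 hold a GC box, among them those of Cdkn1b and Cdkn2d, which did not pass the TSA test, and 32.7% of all 32851 windows of this length do. None of the 9 windows holds TATAAA, present with its reverse complement in 12.4% of all windows, or the E-box CACGTG, present in 6.02%. The nuclear receptor core motif AGGTCA or its reverse complement TGACCT is found in 2 windows, 1 of Cdkn2a and 1 of Cdkn2c, against 14.0% of all. These matches describe letters only and were not tested against binding.

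Among the Cip/Kip genes, Cdkn1c, on chromosome 7 from 143458339 to 143461059 (GRCm38.p6), moved most. Its probe set (95471_at) had ratios of 17.3, 30.5 and 16.9 on TSA replicates 1, 2 and 3, against 1.37, 1.20 and 0.435 on vehicle replicates 1, 2 and 3. The lowest TSA array lay far above the highest vehicle array, and TSA replicate 2 stood above the other TSA arrays. The log2 change was 4.45 (95% interval 3.34 to 5.56, adjusted p = 0.00327 by limma), the 7th highest of the 12422 probe sets. In RA the ratios were 1.28, 0.644 and 0.523, within the range of the vehicle arrays. Their log2 change against vehicle was -0.23 (-1.34 to 0.88, adjusted p = 0.901 by limma), and the interval allows anything from 0.396 to 1.84 times the vehicle level. RA was lower than TSA by a log2 difference of -4.68 (-5.79 to -3.57, adjusted p = 0.00266 by limma), which ranks 5th from the lowest of all probe sets. The calls of Cdkn1c in TSA against vehicle and in RA against TSA held in all 18 alternative settings run per probe set. Several of these settings, such as dropping an array of the group not compared, leave the change as it was and alter only its test. Without both arrays of high 18S signal the TSA change was 3.97 (adjusted p = 0.00978 by limma).

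Cdkn1a lies on chromosome 17 from 29090979 to 29100722. The probe set 98067_at had ratios of 2.65, 3.32 and 2.78 on the TSA arrays, against 1.19, 1.32 and 0.491 on the vehicle arrays. The second probe set, 94881_at, had 2.93, 2.74 and 2.97 on the TSA arrays, against 1.51, 1.11 and 0.381 on the vehicle arrays. Both probe sets had TSA arrays close together and above every vehicle array, and vehicle replicate 3 well below the other vehicle arrays. The order of arrays within a group otherwise differed between the probe sets. The log2 change in TSA was 1.60 (0.81 to 2.40, adjusted p = 0.0452 by limma) for 98067_at and 1.67 (0.69 to 2.65, adjusted p = 0.0758 by limma) for 94881_at, so only the first passed. Averaged over both probe sets the gene passed, with a log2 change of 1.64 and an adjusted p of 0.0410 by limma. Over the 9 arrays, which span the 3 groups, the log2 values of the probe sets had a Pearson r of 0.955.

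The Cdkn1a call was close to the threshold. For 98067_at it held in 1 of 9 fits that each left out 1 array, the one without vehicle replicate 3, where the change was 1.18 (adjusted p = 0.0335 by limma). In the other 8 the adjusted p was 0.0654 to 0.177. The probe set 94881_at passed without vehicle replicate 1 (2.05, adjusted p = 0.0495 by limma) and without vehicle replicate 3 (1.12, adjusted p = 0.0451 by limma). In RA, Cdkn1a had ratios of 0.852, 0.608 and 0.639 by 98067_at, and 0.664, 0.899 and 0.619 by 94881_at. These RA values lay below vehicle replicates 1 and 2 and above vehicle replicate 3 for both probe sets, so the groups overlapped, with log2 changes of -0.39 and -0.26 (adjusted p = 0.712 and 0.860 by limma). Without vehicle replicate 3 both changes were -0.81, with adjusted p of 0.121 and 0.139 by limma. RA was lower than TSA by -1.99 for 98067_at and -1.93 for 94881_at, both past the test (adjusted p = 0.0191 and 0.0460 by limma). Of the 9 fits that each dropped an array, 4 kept the call for 98067_at and 2 for 94881_at. For 98067_at the adjusted p was 0.0758 when RA replicate 2 was dropped and 0.0632 when RA replicate 3 was, and 0.0614 to 0.0825 for any TSA array. For 94881_at it was 0.0704 without vehicle replicate 2 and 0.0951 to 0.138 without any 1 RA or TSA array.

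Cdkn1b, on chromosome 6 from 134920401 to 134925525, had 2 probe sets that did not move together over the 9 arrays (Pearson r of 0.00655). By 100278_at the ratios were 1.05, 0.381 and 0.615 in TSA, against 1.69, 0.460 and 0.849 in vehicle. By 161010_r_at they were 0.297, 0.378 and 0.818 in TSA, against 0.726, 1.44 and 0.830 in vehicle. TSA and vehicle arrays overlapped on both, and the log2 changes of -0.45 (-1.53 to 0.63) and -0.99 (-1.90 to -0.09) did not pass (adjusted p = 0.650 and 0.214 by limma). The second was at an unadjusted p of 0.0346, a level that 19.6% of all probe sets met, and it passed as lower with array weights (-1.50, adjusted p = 0.0287 by limma). The ratios in RA were 1.09, 1.41 and 1.12 by the first and 1.14, 0.805 and 0.688 by the second, within the vehicle range except for the lowest value of the second. RA lay above TSA on every array by 100278_at, by 0.88 (-0.20 to 1.96, adjusted p = 0.407 by limma). By 161010_r_at RA and TSA overlapped, and the log2 difference was 0.85 (-0.06 to 1.75, adjusted p = 0.325 by limma).

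Among the INK4 genes, Cdkn2b, on chromosome 4 from 89306289 to 89311032, rose in TSA. Its ratios were 9.11, 11.1 and 6.33 on the TSA arrays, against 0.751, 1.28 and 0.973 on the vehicle arrays. The groups were far apart, and the vehicle arrays scattered less than for the raised Cip/Kip genes. The log2 change was 3.08 (2.13 to 4.03, adjusted p = 0.00827 by limma), rank 52 of 12422. It passed in 17 of 18 alternatives, the exception being quantile normalisation (2.24, adjusted p = 0.0565 by limma). In RA, 2 of the 3 ratios, 2.15 and 2.25 on replicates 1 and 3, exceeded every vehicle array, while replicate 2 stood at 0.798. The log2 change in RA was 0.66 (-0.29 to 1.61, adjusted p = 0.569 by limma). RA was lower than TSA by -2.42 (-3.37 to -1.47, adjusted p = 0.0178 by limma). This difference did not pass without TSA replicate 1 (adjusted p = 0.0661 by limma) or TSA replicate 2 (0.0793), nor after quantile normalisation (0.126).

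Cdkn2a lies 11.67 kb from Cdkn2b on the same chromosome, from 89274473 to 89294619, and its single probe set does not say whether p16 or Arf transcripts were measured. Its ratios were 1.46, 1.75 and 1.57 on the TSA arrays, against 0.491, 1.13 and 1.38 on the vehicle arrays. The TSA arrays lay just above the highest vehicle array, a separation seen on 9.26% of all probe sets. Its log2 change of 0.76 (-0.38 to 1.89) did not pass (adjusted p = 0.450 by limma). In RA the ratios were 0.619, 0.475 and 1.72, which ran from below the lowest to above the highest vehicle array. The log2 change in RA was -0.18 (-1.32 to 0.95, adjusted p = 0.927 by limma). RA against TSA gave -0.94 (-2.08 to 0.19, adjusted p = 0.396 by limma).

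The values of Cdkn2b and its neighbour were also compared within each array, a pair chosen after its values were seen. The log2 value of Cdkn2b minus that of Cdkn2a averaged 2.40 ± 0.370 on TSA arrays and 0.0847 ± 0.532 on vehicle arrays (SD, n = 3 each), a difference of 2.32 with no overlap. Each ratio is to the vehicle mean of its own probe set. The vehicle average therefore follows largely from this scaling and does not show equal levels of the genes. The difference restates the TSA changes of both genes given above. Since the pair was chosen for its values, this is a description only, and an exact test of 3 against 3 arrays cannot give a p under 0.1.

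The remaining INK4 genes did not pass in any comparison. Cdkn2c, on chromosome 4 from 109660876 to 109666756, had ratios of 0.866 to 1.18 in RA, 0.906 to 1.05 in TSA and 0.904 to 1.13 in vehicle. Its log2 changes were 0.07 (-0.38 to 0.51) in RA and -0.06 (-0.50 to 0.38) in TSA, the narrowest intervals among the inhibitors. Cdkn2d, on chromosome 9 from 21288459 to 21291421, had ratios of 1.48, 1.18 and 1.21 in RA, 0.974, 0.973 and 0.985 in TSA and 1.28, 1.04 and 0.685 in vehicle. The RA arrays of Cdkn2d all lay above the TSA arrays, and both compounds overlapped vehicle. The log2 changes were 0.39 (-0.16 to 0.93, adjusted p = 0.562 by limma) in RA and 0.01 (-0.54 to 0.56, adjusted p = 0.989 by limma) in TSA. RA exceeded TSA by 0.38 (-0.17 to 0.92, adjusted p = 0.503 by limma).

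**Figure D2:**
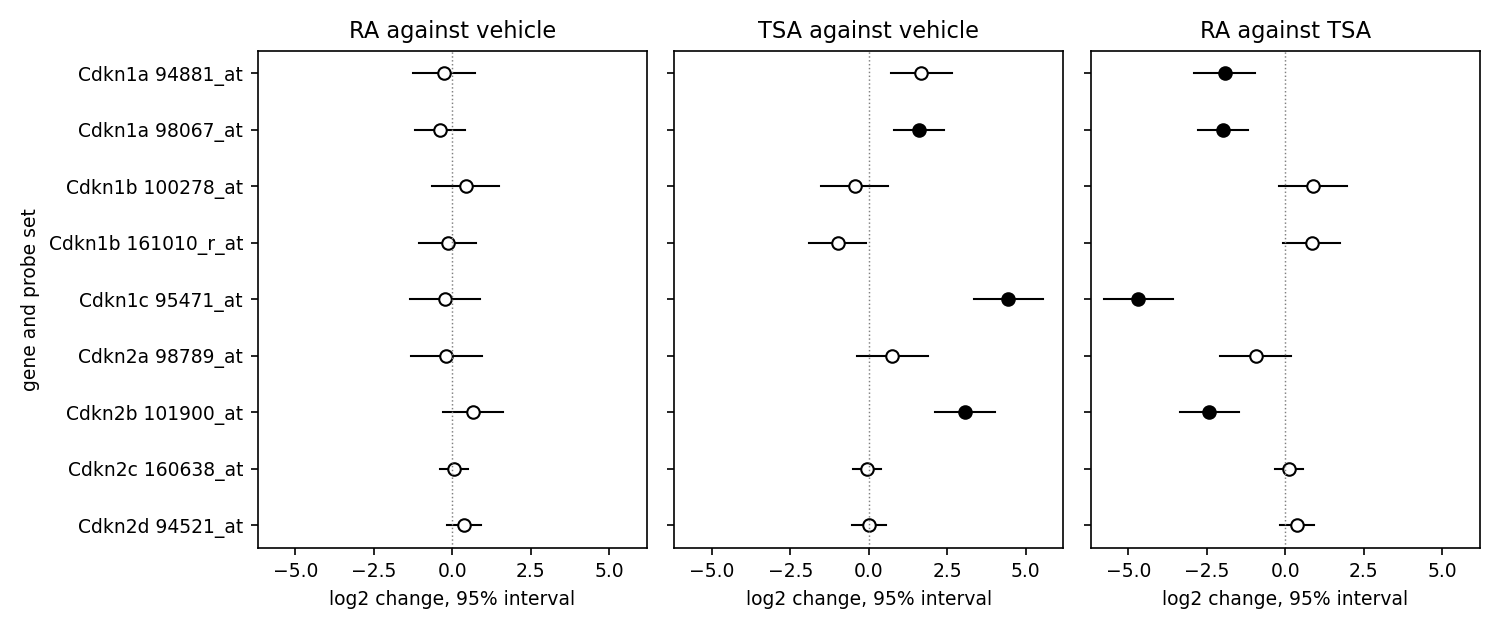
Log2 change with its 95% interval (x axis) of each inhibitor probe set (y axis) in RA against vehicle, TSA against vehicle and RA against TSA. Filled points passed limma's test at an adjusted p under 0.05, which are 0, 3 and 4 of the 9 probe sets.

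Over the 9 probe sets the median log2 change was -0.15 in RA and 0.76 in TSA, beside -0.12 and -0.17 over all 12422 probe sets. The Cip/Kip probe sets had a median of 1.60 in TSA, with values from -0.99 to 4.45, and the INK4 probe sets 0.38, with values from -0.06 to 3.08, so each class held probe sets that passed and others that did not. In TSA the arrays of 5 of the 9, from 4 genes, lay wholly above vehicle, against 9.26% of all probe sets. None lay wholly below, against 17.1%, so 5 were separate where 26.3% of all were. In RA 0 of 9 were separate from vehicle, against 17.0% of all (5.93% above and 11.0% below). In RA against TSA, 4 of the 9, from 3 genes, passed, all lower in RA. Of all probe sets 3.91% passed there, 2.21% as lower and 1.70% as higher. RA and TSA arrays were separate on 6 of the 9, from 5 genes, with 4 lower and 2 higher in RA. This compares with 27.3% of all (13.5% lower and 13.8% higher). The comparisons with vehicle share its 3 arrays, and vehicle replicate 3 was the lowest vehicle array on 4 of the 9 probe sets, both of Cdkn1a and those of Cdkn1c and Cdkn2d. The share of all probe sets with that array lowest was not counted, so this is not read as a trait of the inhibitors. Centring each array on its median, which takes out the shift of all probe sets, gave TSA changes of 4.65 for Cdkn1c, 3.28 for Cdkn2b and 1.80 for Cdkn1a (98067_at).

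**Figure D3:**
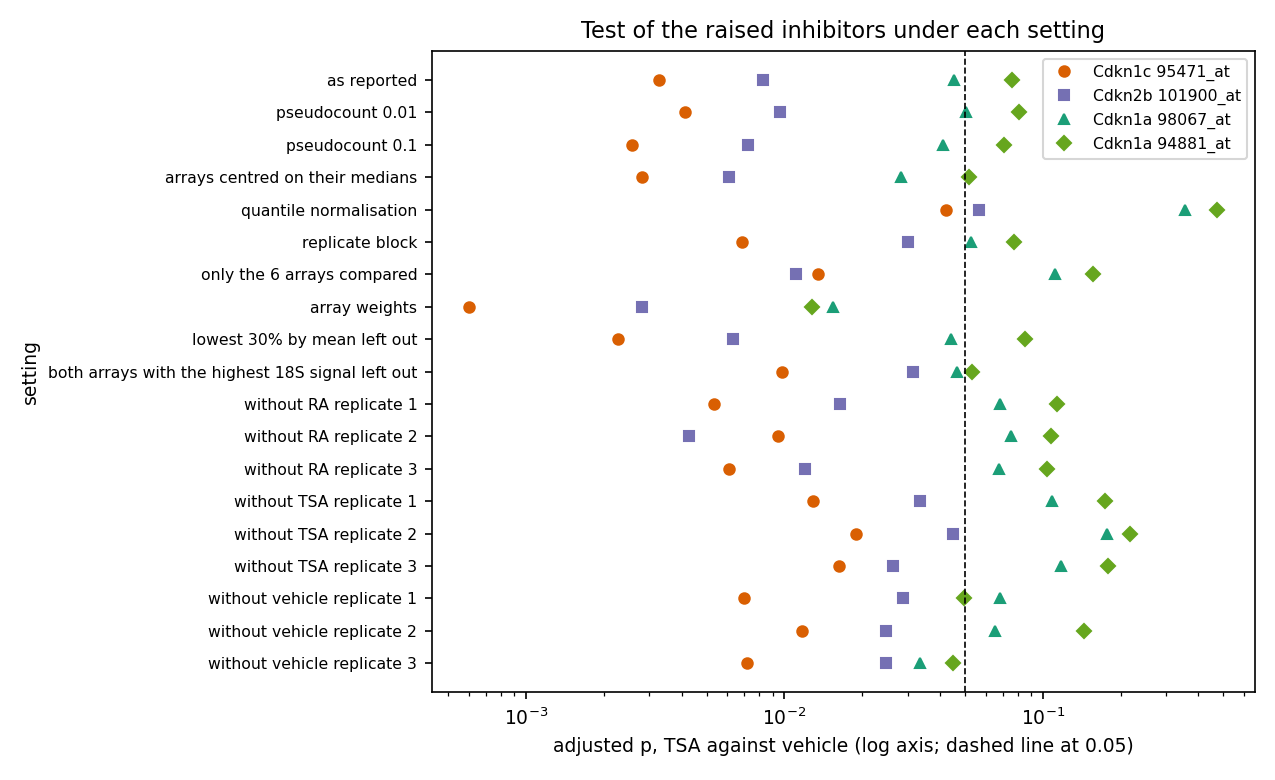
Adjusted p of TSA against vehicle (x axis, log scale, dashed line at 0.05) for the probe sets of Cdkn1c, Cdkn2b and Cdkn1a under each setting (y axis). Cdkn1c stays left of the line throughout, up to 0.0423, Cdkn2b reaches 0.0565 under quantile normalisation, and both Cdkn1a probe sets straddle the line.

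The genes whose log2 values followed the raised inhibitors most closely over the 9 arrays were named by Pearson r, which here mostly follows the difference between TSA and the other arrays. For Cdkn1c they were S100a6 (r of 0.986), Gas6 (0.982) and Tex19.1 (0.982), with TSA changes of 4.12, 1.23 and 3.06. For Cdkn2b they were Parm1 (0.978), Ethe1 (0.960) and Txnip (0.958), with TSA changes of 1.49, 2.00 and 2.46. For Cdkn1a by 98067_at they were Atg5 (0.995), Ndufa3 (0.978) and Txnrd1 (0.975), with TSA changes of 0.56, 0.82 and 0.76. By 94881_at they were Cox6b2 (0.980), Isoc1 (0.979) and Lama5 (0.979), with TSA changes of 1.70, 0.33 and 1.15. The lists for the 2 Cdkn1a probe sets shared no gene.

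Of 25 probe sets of 19 measured cyclin and kinase genes, partners of the inhibitors, 2 fell in TSA and none rose, where 1.27% of all probe sets were lower and 2.21% higher. None of the 25 passed in RA, where 1.36% of all did. Ccnd1, the D-type cyclin that activates Cdk4 and Cdk6, fell by 1.15 on the log2 scale in TSA by 94231_at (adjusted p = 0.0433 by limma). Its ratios by that probe set were 0.466, 0.447 and 0.333 in TSA, against 0.783, 0.907 and 1.31 in vehicle, while 94232_at gave -0.60 (adjusted p = 0.315 by limma). Cdc25a, a phosphatase that activates Cdk2, had a TSA change of -0.85 by 97390_at (adjusted p = 0.0394 by limma), while 97389_at gave 0.51 and did not pass. Neither call held in any of the 9 fits without 1 array, where the adjusted p was 0.0523 to 0.140 for Ccnd1 and 0.0548 to 0.170 for Cdc25a. The E-type cyclin Ccne1 (-0.76 in RA and -0.32 in TSA) did not pass with either compound. Cdk2 (-0.13 and -0.04 in RA, -0.41 and -0.42 in TSA) and Cdk4 (0.02 and -0.25 in RA, -0.26 and -0.67 in TSA) did not pass either, with 2 probe sets each. The median over this list was -0.22 in RA and, in TSA, -0.42.

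Downstream of the kinases stand the retinoblastoma proteins and the E2F factors they hold back. Of 11 probe sets of 7 such genes, 1 fell in TSA, where 1.27% of all were lower. None passed in RA, where 1.36% of all did. The medians were -0.17 in RA and -0.24 in TSA. E2f1, which drives genes of DNA replication, had a TSA change of -0.95 by 161427_f_at (adjusted p = 0.0346 by limma) and of -1.03 by 102963_at, which did not pass. The call did not hold in any fit without 1 array (0.0548 to 0.148). Rb1, the retinoblastoma gene, had TSA changes of 1.01 and 1.04 by its 2 probe sets, which did not pass (adjusted p = 0.122 and 0.0890 by limma).

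For genes known to regulate the inhibitors, 39 probe sets of 31 genes were measured. In RA 1 rose and 1 fell, where 0.934% of all probe sets were higher and 0.427% lower. In TSA 1 rose and 2 fell, where 2.21% of all were higher and 1.27% lower. The medians were -0.14 in RA and -0.08 in TSA. Myc, which represses Cdkn1a and Cdkn2b, had ratios of 0.206, 0.116 and 0.135 in RA, against 1.06, 1.06 and 0.878 in vehicle. Myc thus fell in RA, with a log2 change of -2.39 (adjusted p = 0.00316 by limma), while Cdkn1a and Cdkn2b did not pass there. In TSA the change of Myc was -0.54 (adjusted p = 0.260 by limma). Tbx3, a repressor of the Cdkn2a locus, rose in RA by 1.49 (adjusted p = 0.0286 by limma), a call that held in 3 of 9 fits without 1 array (0.0195 to 0.128). In TSA, Klf4, an activator of Cdkn1a, had a change of -1.79 by 99622_at (adjusted p = 0.00980 by limma), which passed in all 9 such fits, and of -1.74 by 161185_i_at, which did not pass. Id1, which opposes E-protein activation of the inhibitors, rose by 1.26 in TSA (adjusted p = 0.0164 by limma) and held in 5 of 9 fits (0.0200 to 0.0778). Cul1, a scaffold of the ligase that degrades p27, had a TSA change of -1.01 (adjusted p = 0.0341 by limma), which held in 1 of 9 fits (0.0376 to 0.140).

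Cdkn1c lies in an imprinted cluster, and 18 probe sets of 14 genes within 791.5 kb of it were measured. Of these, 2 rose in TSA, where 2.21% of all probe sets were higher, and none passed in RA, where 1.36% of all did. The medians were -0.09 in RA and 0.06 in TSA. Phlda2, an imprinted growth inhibitor of the placenta that lies 40.49 kb away, had ratios of 3.40, 3.25 and 3.04 in TSA, against 0.566, 1.46 and 0.970 in vehicle. Its change of 1.74 (adjusted p = 0.0337 by limma) stands beside 4.45 for Cdkn1c. Within arrays, the log2 value of Cdkn1c minus that of Phlda2 was higher in TSA than in vehicle by 2.71, with no overlap. This difference restates the TSA changes of both genes, since each ratio is to the vehicle mean of its own probe set. It is a description only, and an exact test of 3 against 3 arrays cannot give a p under 0.1. Igf2, a paternally expressed growth factor, rose by 2.34 in TSA by 98623_g_at (adjusted p = 0.0341 by limma), whereas 98622_at gave 0.85 (adjusted p = 0.621 by limma). The Phlda2 and Igf2 calls held in 3 and 2 of 9 fits without 1 array (0.0323 to 0.132 and 0.0265 to 0.140). Among 10 probe sets of 6 genes near the other inhibitors none passed, where 1.36% of all passed in RA and 3.48% in TSA. Their medians were -0.13 in RA and -0.22 in TSA.

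**Figure D4:**
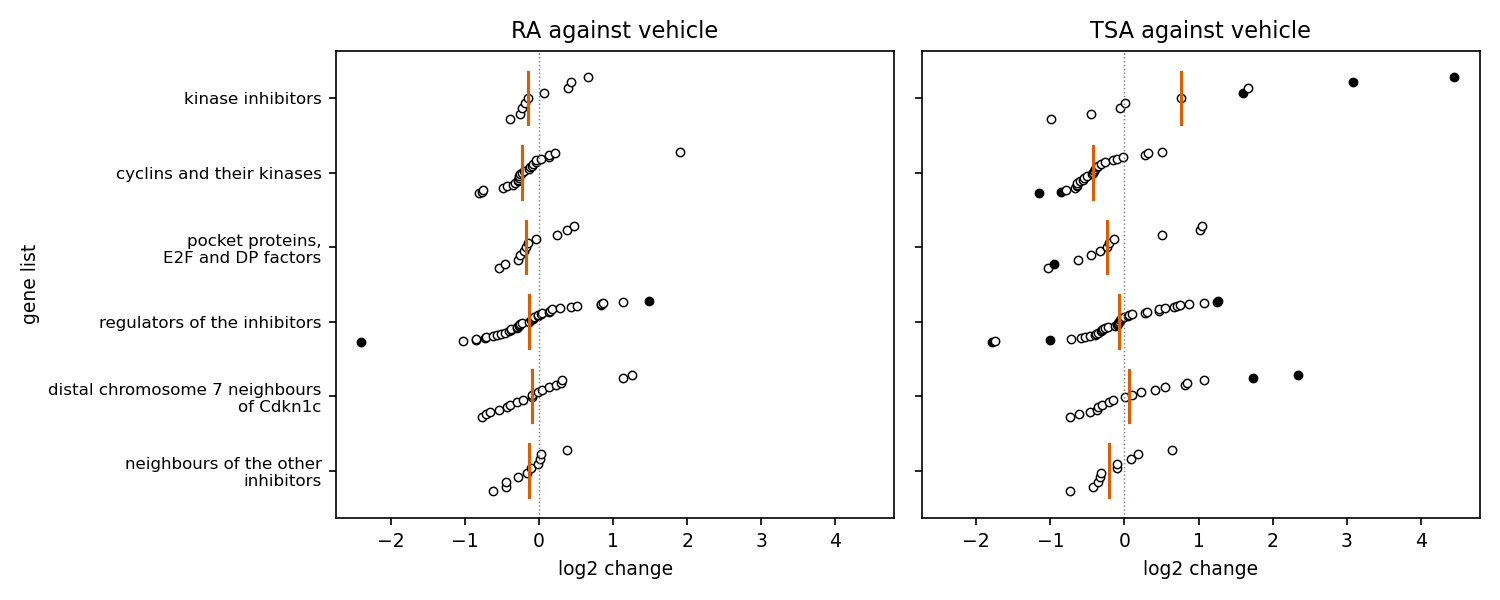
Log2 change (x axis) of every probe set of the inhibitors and of the 5 lists around them (y axis) in RA and TSA against vehicle, ordered by size within a list, with list medians as vertical bars and probe sets that passed the test filled. Cdkn1c at 4.45 and Cdkn2b at 3.08 are the points farthest to the right in TSA, and Myc at a log2 change of -2.39 is farthest to the left in RA.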

How the data were processed

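The authors deposited a linear ratio for each of 12488 probe sets on 9 arrays. In every probe set the vehicle arrays averaged 1 within 1e-05, so ratios are to the vehicle mean. Per the labels, vehicle RNA was hybridised by the manufacturer's protocol and raw data went into GeneSpring; no source used here gives the later steps. The 66 control probe sets were left out, leaving 12422, of which 10833 had 1 gene symbol, 396 several and 1193 none. Ratios were used without scaling. One limma fit (version 3.58.1, R 4.3.3) on log2(ratio + 0.05) over all arrays, with 6 residual degrees of freedom, gave the 3 comparisons, and adjustment ran over all probe sets. The number of arrays limits the precision. Promoters came from RefSeq (GRCm38.p6).

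The inhibitors, lists, tests and alternatives were chosen with earlier results of these data known. All inhibitor probe sets are named, with up to 4 called probe sets of each list per treatment, a fixed set of cell cycle genes and the 3 closest patterns of each called inhibitor. H19 and Trp53 of that set were not analysed here, and marker genes are given as counts. Alternatives were other pseudocounts (0.01 and 0.1), centring, quantile normalisation, a replicate block, fits on the 6 arrays compared, array weights (limma's gene-by-gene method, taken after its REML method did not converge on these data), a filter on the lowest 30% by mean ratio, averaging probe sets of a gene, leaving out each array, and leaving out both arrays of high 18S signal. Each probe set has a vehicle mean of 1, so the filter ranks probe sets by their RA and TSA ratios alone. It keeps probe sets that rose, and passing under it adds no support for the raised inhibitors.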

Additional observations from a re-analysis of the deposited data

How the results depend on the processing

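The TSA rise of Cdkn1c passed in every setting run, that of Cdkn2b in all but quantile normalisation, and that of Cdkn1a depended on the setting. Quantile normalisation left 1 inhibitor probe set in TSA against vehicle and 1 in RA against TSA, and array weights gave 5 in TSA against vehicle, of which 4 were higher and 1, Cdkn1b 161010_r_at, was lower (-1.50, adjusted p = 0.0287 by limma). Leaving out each array gave 0 inhibitor probe sets in RA, 2 to 4 in TSA and 1 to 4 in RA against TSA. Over all probe sets, the counts of 169 (RA), 432 (TSA) and 486 (RA against TSA) became 87, 108 and 152 after quantile normalisation and 549, 1771 and 890 with array weights. They were 61 for RA and 168 for TSA from the 6 arrays compared, and 98 for RA without both arrays of high 18S signal. Leaving out each array gave 54 to 209, 107 to 494 and 167 to 624. With the replicate block 2 inhibitor probe sets passed in TSA and 2 in RA against TSA. The block ended the calls of Cdkn1a 98067_at in TSA (adjusted p = 0.0527 by limma) and, in RA against TSA, of Cdkn1a 94881_at (0.0557) and Cdkn2b (0.05002). The deviations of arrays of the same number had r of -0.0317 to 0.289, highest for RA and vehicle replicates 3, and those of different numbers -0.300 to 0.171. Next came RA and vehicle replicates 1 (0.249), TSA and vehicle replicates 3 (0.237) and RA and TSA replicates 3 (0.190). These pairs lay above every pair of different numbers, while the remaining pairs of the same number reached at most 0.0719. RA replicate 2 correlated best with TSA replicate 1 (0.0662). The labels give no pairing, so the numbers were not taken to pair the arrays in the main fit. Whether arrays of the same number, above all replicate 3, shared a batch was not tested.

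Changes that did not pass turned sign in some settings. After centring, Cdkn1b 161010_r_at was 0.00841 in RA, Cdkn2c 0.14 in TSA, and Cdk2 0.0242 and 0.12 in RA. Quantile normalisation gave 0.14 for Cdkn2c in TSA and 0.0421 for Cdk2 94412_at in RA. Array weights gave 0.25 for Cdkn1b 100278_at, 0.00754 for Cdkn2c and -0.0784 for Cdkn2d in TSA, and -0.0127 for Cdk4 101017_at in RA. Without both arrays of high 18S signal, Cdkn2c was 0.0288 and Cdkn2d -0.23 in TSA, and in RA Cdk4 101017_at was -0.0926, Cul1 -0.0370 and Igf2 98622_at 0.0247. Leaving out each array gave, in RA against vehicle, -0.81 to 0.12 for Cdkn1a 94881_at, -0.00194 to 0.88 for Cdkn1b 100278_at, -0.34 to 0.14 for Cdkn1b 161010_r_at, -0.72 to 0.0572 for Cdkn1c, -0.71 to 0.17 for Cdkn2a, -0.0160 to 0.19 for Cdkn2c, -0.37 to 0.0367 for Cdk2 94411_at, -0.18 to 0.12 for Cdk2 94412_at, -0.22 to 0.23 for Cdk4 101017_at, -0.0578 to 0.11 for Cul1, -1.42 to 0.11 for Igf2 98622_at and -0.55 to 0.10 for Phlda2. In TSA it gave -0.88 to 0.00441 for Cdkn1b 100278_at, -0.13 to 0.0288 for Cdkn2c and -0.23 to 0.20 for Cdkn2d, and in RA against TSA -0.0184 to 0.52 for Ccnd1 94232_at and -0.0435 to 0.53 for Cdk2 94411_at. The causes were not tested. The array weights use limma's gene-by-gene method, chosen after seeing that its REML method did not converge and called many more probe sets. Cdkn1b 161010_r_at had no value under the filter, which removed it for its low RA and TSA ratios. The ratios hold no signal over background, so low brightness of any probe set could not be judged.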
